A study of Mus musculus with 12 samples.

Results

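Cells keep free iron within narrow limits largely by controlling the mRNAs of iron genes after they are made, and 8 such genes were followed here on and off polysomes in embryonic mouse limb buds. They were taken by name from the deposited table, 8 of 54532 genes: the ferritin subunits Fth1 and Ftl1, the ferritin-releasing receptor Ncoa4, the transferrin receptor Tfrc, the iron importer Slc11a2, the iron exporter Slc40a1 and the iron regulatory proteins Aco1 and Ireb2. All 8 were detected in all 12 libraries.

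The limb buds came from mice at stage E12.5, mid-gestation. The knockout limb buds (cKO) are labelled Mettl14 flox/flox and Mettl14 knockout, and the heterozygous controls (cHet) are labelled Mettl14 wt/flox, so both genotypes carry a floxed allele. Its product, METTL14, is a partner of the METTL3 methyltransferase in depositing N6-methyladenosine on RNA. The Cre driver, its cell type and the deleted exons are not given in the sources used here. From cytoplasmic fractions of each genotype, polysome RNA was purified on a sucrose gradient and sequenced beside the unfractionated cytoplasmic RNA (input). This gave 4 groups, cKO polysome, cHet polysome, cKO input and cHet input, each with 3 libraries labelled as biological replicates. Whether a replicate is 1 embryo or a pool is not given either, so p-values measure the spread between these libraries.

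Iron regulatory proteins 1 and 2, the products of Aco1 and Ireb2, bind a short RNA hairpin, the iron-responsive element, when iron is scarce. Bound near the 5′ end of an mRNA, as in both ferritins and in ferroportin, they hold back translation, and bound in the 3′ untranslated region (UTR) of transferrin receptor mRNA they protect the mRNA from decay. With ample iron, IRP1 takes up an iron-sulfur cluster and becomes a cytosolic aconitase, and IRP2 is degraded. Ferritin mRNA is therefore a textbook case of an mRNA that is abundant yet moves on and off ribosomes with iron supply. This is background and not a result of these libraries.

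The hairpins are shown because they mark which of the 8 mRNAs hold a match to a strict form of the element and at which end. A hairpin was taken as 17 bases in a row, a C, then any 5 bases, the loop CAGTGN and 5 bases that pair with the 5 before the loop, G-T pairs allowed. It was read on the sense strand of protein-coding transcripts in GENCODE M21 (build GRCm38, which is mm10). Each line gives 29 bases 5′ to 3′ as DNA letters from the reference, with the loop CAGTGN in capitals.
Fth1 (5′ UTR, chr19:9982732-9982760, plus strand): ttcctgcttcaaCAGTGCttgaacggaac
Ftl1 (5′ UTR, chr7:45459779-45459807, minus strand): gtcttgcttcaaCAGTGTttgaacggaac
Slc40a1 (5′ UTR, chr1:45925465-45925493, minus strand): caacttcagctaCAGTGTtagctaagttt
Tfrc site 1 (3′ UTR, chr16:32631219-32631247, plus strand): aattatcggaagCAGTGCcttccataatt
Tfrc site 2 (3′ UTR, chr16:32631598-32631626, plus strand): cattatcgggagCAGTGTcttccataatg
Tfrc site 3 (3′ UTR, chr16:32631663-32631691, plus strand): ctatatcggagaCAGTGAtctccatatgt
Tfrc site 4 (3′ UTR, chr16:32631710-32631738, plus strand): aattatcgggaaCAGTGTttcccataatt

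The Fth1 and Ftl1 stretches shared 26 of 29 bases, and each shared 13 of 29 with the Slc40a1 stretch. The 4 Tfrc sites shared 18 to 25 of 29 bases with one another. In the annotated transcripts the hairpin began at base 93 of Fth1, base 84 of Ftl1 and base 96 of Slc40a1. It ended 115, 153 and 207 bases before the start codon. The GENCODE M21 transcript of Fth1 starts upstream of the deposited Fth1 gene coordinates given below. Its count from the 5′ end therefore depends on the annotation. Such a match lay in the 5′ UTR of 31 of 21901 protein-coding genes (0.142%) and in the 3′ UTR of 129 (0.589%). Tfrc was the 1 gene with 2 or more matches in a single 3′ UTR. No match was found in the annotated protein-coding transcripts of Slc11a2, Aco1, Ireb2 or Ncoa4. A match is a description of letters, and its absence says nothing of binding. Slc11a2 is known to have alternative 3′ ends with and without an element, and the gene-level values used here add them together.

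**Figure D1:**
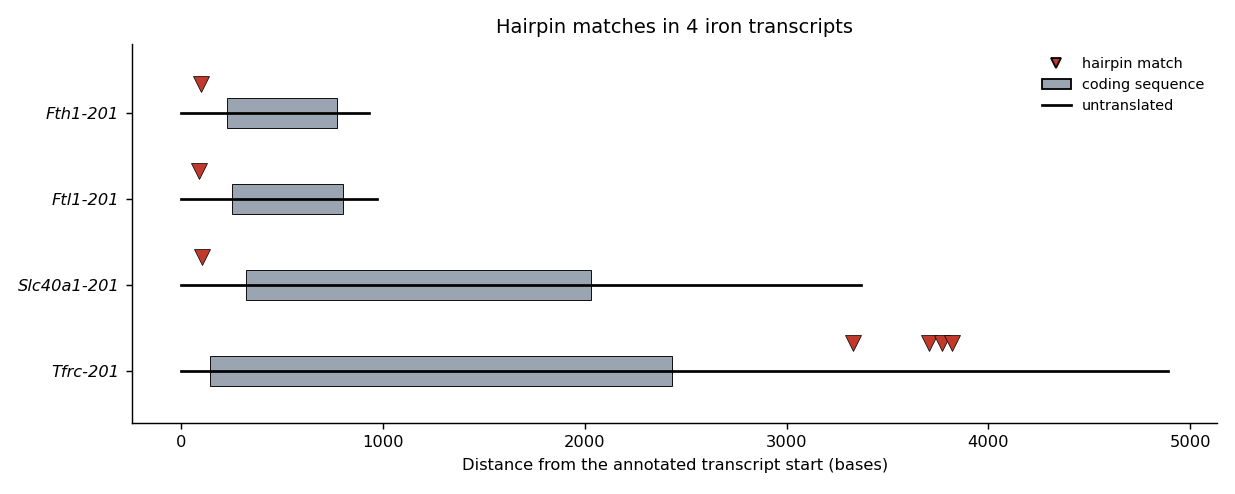
Positions of the hairpin matches along 1 annotated transcript each of Fth1, Ftl1, Slc40a1 and Tfrc, with the distance from the transcript start in bases on the x axis, coding sequence as boxes and untranslated sequence as lines. Fth1, Ftl1 and Slc40a1 each carry 1 match ahead of the coding sequence, and Tfrc carries 4 behind it.

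Levels are FPKM as deposited, that is, read counts divided by gene length and scaled between libraries, from libraries of 10349912 to 30068823 reads. An FPKM is relative to the other genes of its library, so a polysome level below the input level means less of that mRNA relative to the other genes, not a count of mRNAs on ribosomes. Of the libraries, cKO input replicate 3 and cKO polysome replicate 1 stood apart. Input replicate 3 scored 63.0 on the second principal component (17.1% of the variance), against −22.5 to −0.493 for the other inputs. Polysome replicate 1 scored −3.97 on the first (51.9%), against −53.8 to −35.5 for the other polysome libraries. The results they move most are also given without them. Mettl14, which checks the labels, had an FPKM of 2.60, 3.32 and 1.26 in cKO input against 4.09, 4.03 and 4.04 in cHet input (log2 difference −0.83, limma adjusted p = 0.295, and −0.45 without cKO input replicate 3, adjusted p = 0.0768). Its polysome values were 2.73, 2.81 and 3.29 in cKO against 2.83, 3.07 and 3.02 in cHet (−0.02), so this gene did not tell the libraries labelled cKO polysome from cHet polysome. All 10 limb mesenchyme markers were above 0 in every library. Their log2 cKO minus cHet difference was above 0 for 9 of 10 in input (median 0.33) and 8 of 10 on polysomes (median 0.14). None was called by limma. Of all tested genes, 6302 of 12977 were above 0 in input and 6814 of 12877 on polysomes. In input the 10 markers summed to 1065 to 1277 FPKM in cKO against 773 to 949 in cHet, without overlap. On polysomes the sums overlapped. Input groups of single genes separated one way or the other in 29.3% of those tested. The 5 hepatocyte markers together reached 0.668 to 2.18 FPKM a library.

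The ferritin subunits, which assemble into the shell that stores iron, were by far the most abundant of the 8 mRNAs. In cHet input, Fth1 averaged 984 ± 109 FPKM and Ftl1 907 ± 36.4 (SD, n = 3, as for all means below), and their libraries overlapped. The next genes in cHet input were Ireb2 at 17.8 ± 0.409, Aco1 at 13.0 ± 0.299, Tfrc at 8.31 ± 0.341, Slc11a2 at 6.47 ± 0.691, Ncoa4 at 4.01 ± 0.368 and Slc40a1 at 1.49 ± 0.0876. No neighbours in this order overlapped other than Fth1 and Ftl1. The order of FPKM levels is per length of gene model, the union of all annotated exons, and a long model lowers the level of a gene that uses only part of it.

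**Figure D2:**
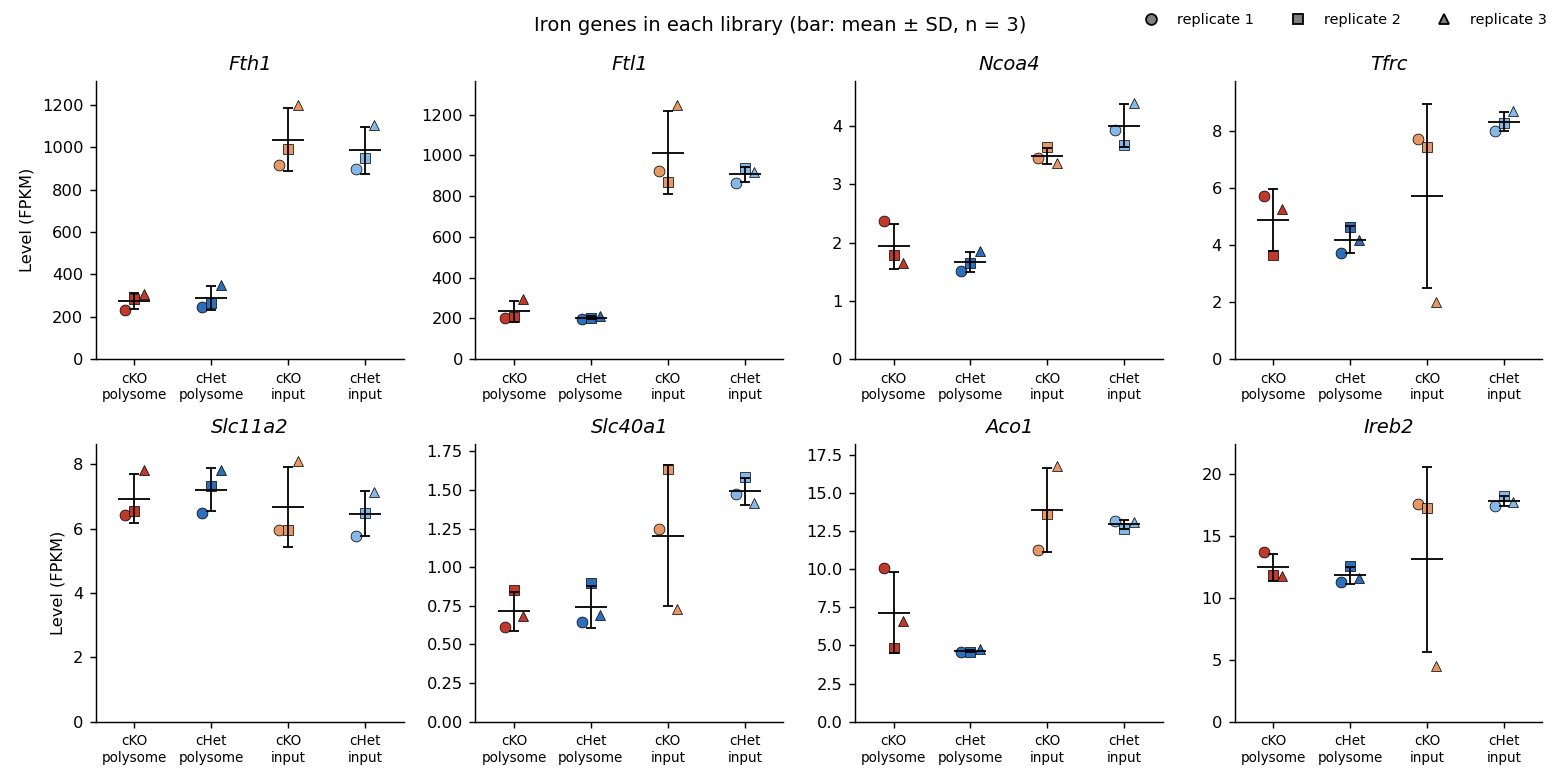
FPKM (y axis, linear, a scale per gene) of the 8 iron genes in the 12 libraries, with cKO polysome, cHet polysome, cKO input and cHet input from left to right; symbols are replicates and bars the mean ± SD of 3. Both ferritins sit far lower in every polysome library than in every input library, and cKO input replicate 3 lies at 2.00 FPKM for Tfrc and 4.50 for Ireb2, far below the other inputs.

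Fth1 and Ftl1 mRNAs were several times lower in polysome RNA than in input RNA, in both genotypes and in every lysate. Fth1 encodes the heavy subunit, which oxidises iron for storage (ENSMUSG00000024661; chromosome 19, 9982703 to 9985092, plus strand). It had 233, 282 and 307 FPKM on cKO polysomes against 914, 993 and 1201 in cKO input. On cHet polysomes it had 244, 264 and 350 FPKM against 898, 949 and 1106 in cHet input. No polysome library reached an input library in either genotype, a separation found in 16.5% of all tested genes in cKO and 37.2% in cHet. The polysome minus input difference was −1.92 on the log2(FPKM + 0.1) scale in cKO (SE 0.17, limma adjusted p = 6.78e-05) and −1.79 in cHet (SE 0.17, adjusted p = 7.98e-05).

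Ftl1 encodes the light subunit, which helps the iron core to form (ENSMUSG00000050708; chromosome 7, 45457944 to 45459884, minus strand). It had 202, 207 and 294 FPKM on cKO polysomes against 923, 871 and 1247 in cKO input. On cHet polysomes it had 197, 199 and 210 FPKM against 866, 937 and 916 in cHet input. Again the fractions were fully separated, with differences of −2.12 in cKO (SE 0.17, adjusted p = 2.72e-05) and −2.16 in cHet (SE 0.17, adjusted p = 2.49e-05). Ftl1 has a near-identical copy, Ftl1-ps1 on chromosome 13, whose annotated transcript holds the same 29 bases, and reads could be split between them. Ftl1-ps1 had 4.60 to 7.75 FPKM on cKO polysomes and 4.71 to 5.71 on cHet polysomes, against 18.7 to 31.4 in cKO input and 21.2 to 23.5 in cHet input. Its level was a small part of that of Ftl1 in every library.

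The polysome to input ratio of the ferritins varied little between lysates. Polysome and input libraries of the same genotype and number were read as 1 lysate, from the design. Fth1 on polysomes stood at 25.5%, 28.4% and 25.6% of its input level in cKO lysates 1 to 3 and at 27.2%, 27.8% and 31.7% in cHet lysates. Ftl1 stood at 21.9%, 23.7% and 23.6% in cKO and at 22.8%, 21.3% and 23.0% in cHet. Thus each ferritin kept a narrow range across 6 lysates, including the pair that hold the libraries standing apart. The SD of the log2 ratio over the 6 lysates was 0.0618 for Ftl1 and 0.116 for Fth1, against a median of 0.293 among 405 protein-coding genes with at least 100 FPKM in input. Of those 405 genes, 0% had a smaller SD than Ftl1 and 2.96% a smaller SD than Fth1, a description across genes of the same libraries.

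**Figure D3:**
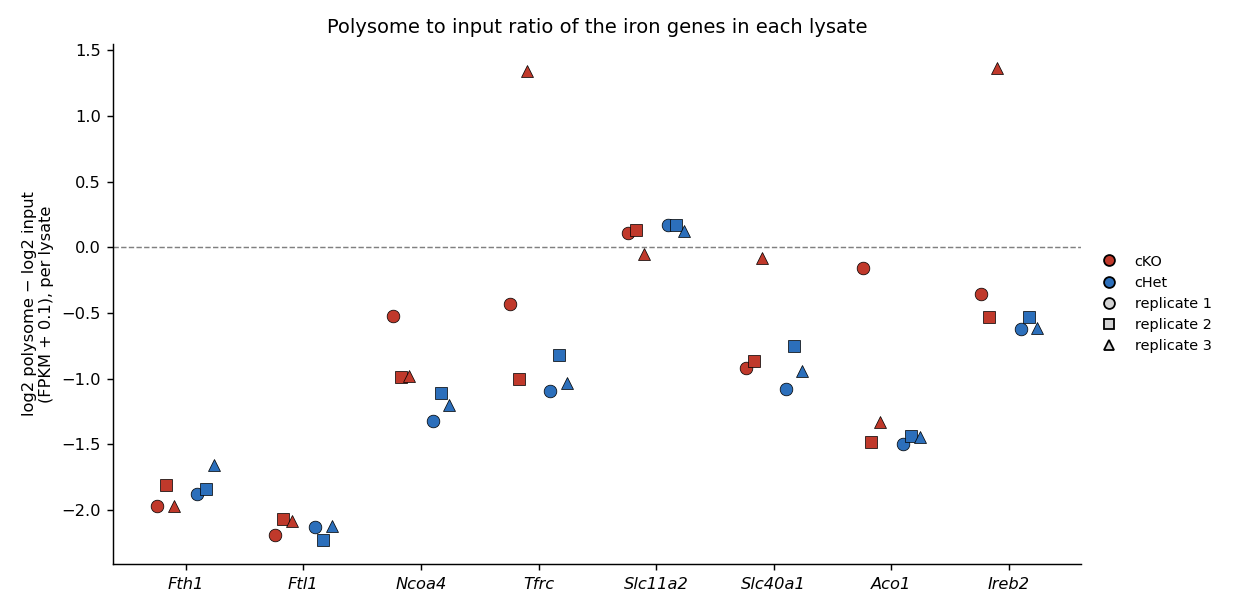
Log2 polysome minus log2 input of the 8 genes (y axis, on FPKM + 0.1) in each of 6 lysates, cKO left of cHet for each gene; a point is 1 lysate and the dashed line marks equal levels. The ferritin points lie between −2.23 and −1.66 in all 6 lysates, Slc11a2 lies close to 0, and cKO lysate 3 lies at 1.35 for Tfrc and 1.37 for Ireb2.

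Set among other abundant mRNAs, the ferritins were near the bottom of the range. Among protein-coding genes with at least 100 FPKM in that genotype's input, Ftl1 had the second lowest polysome minus input difference of 399 genes in cKO and of 394 in cHet. Fth1 ranked 4 of 399 in cKO and 8 of 394 in cHet. The other genes among the lowest 4 of cKO were Igf2, a fetal growth factor, and Rplp0, a ribosomal stalk protein, and in cHet they were Gpc3, a cell surface proteoglycan, Hspa5, a chaperone of the endoplasmic reticulum, and Igf2. These names were chosen after their values were seen. Over all 13610 genes tested, the median difference was 0.06 in cKO and 0.02 in cHet. Of the 79 ribosomal protein genes tested, whose mRNAs are also abundant and short, 57 were lower and 0 higher on cKO polysomes. On cHet polysomes 29 were lower and 4 higher. The median differences were −0.68 in cKO and −0.32 in cHet. Of all tested genes, 15.6% were lower and 16.9% higher in cKO, and 25.9% lower and 27.3% higher in cHet.

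Of the 8 iron genes, 4 were lower on polysomes in cKO, against 15.6% of all tested genes, and 5 were lower in cHet, against 25.9% of all tested genes. None was higher in either genotype, where 16.9% of all tested genes were higher in cKO and 27.3% in cHet. The members' median difference was −0.73 in cKO and −1.10 in cHet. Fth1, Ftl1, Aco1 and Ncoa4 were lower in both genotypes, and Slc40a1 passed in cHet. A call in 1 genotype alone does not show a difference between genotypes, which was tested separately. Without the 2 libraries that stood apart, a setting chosen with earlier results known, 7 of 8 were lower in cKO (30% of all tested genes) and 7 of 8 in cHet (35.7%). Slc11a2 was the exception in both.

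**Figure D4:**
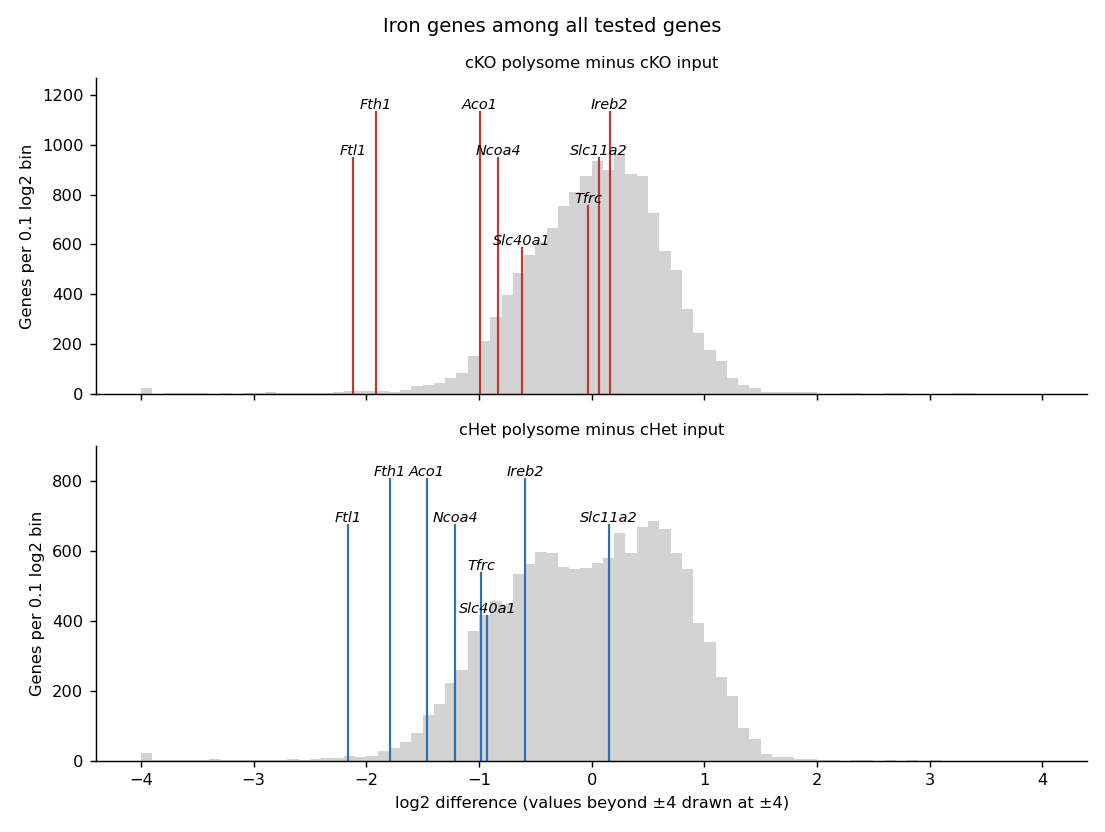
Number of genes (y axis) per log2 polysome minus input difference (x axis) among the 13610 genes tested, in cKO above and cHet below, with vertical lines at the 8 iron genes. Ftl1 and Fth1 lie in the lower tail in both genotypes, with 0.536% and 0.669% of genes lower in cKO and 0.529% and 0.985% lower in cHet.

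Ncoa4, the receptor that carries ferritin to lysosomes so that its iron is released (ENSMUSG00000056234; chromosome 14, 32159865 to 32179855, plus strand), was a low mRNA that was lower still on polysomes. It had 2.38, 1.79 and 1.65 FPKM on cKO polysomes against 3.45, 3.64 and 3.36 in cKO input. On cHet polysomes it had 1.52, 1.65 and 1.86 FPKM against 3.94, 3.68 and 4.41 in cHet input. The fractions did not overlap in either genotype, a separation found in 16.5% of all tested genes in cKO and 37.2% in cHet. The differences were −0.83 in cKO (SE 0.16, adjusted p = 0.00298) and −1.21 in cHet (SE 0.16, adjusted p = 1.73e-04).

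Aco1, which encodes IRP1 (ENSMUSG00000028405; chromosome 4, 40143081 to 40198338, plus strand), had 10.1, 4.80 and 6.59 FPKM on cKO polysomes against 11.2, 13.6 and 16.7 in cKO input. On cHet polysomes it had 4.58, 4.59 and 4.75 FPKM against 13.1, 12.6 and 13.1 in cHet input. Every polysome library was below every input library of its genotype, as in 16.5% of all tested genes in cKO and 37.2% in cHet. The cHet libraries lay close together. The differences were −0.99 in cKO (SE 0.22, adjusted p = 0.00655) and −1.46 in cHet (SE 0.22, adjusted p = 3.51e-04). As a share of the input level, Aco1 on polysomes stood at 89.7%, 35.3% and 39.3% in cKO lysates 1 to 3 and at 34.9%, 36.4% and 36.2% in cHet lysates. The high cKO value is that of the lysate whose polysome library stood apart.

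Ireb2, which encodes IRP2 (ENSMUSG00000032293; chromosome 9, 54863789 to 54912530, plus strand), had 13.7, 11.9 and 11.8 FPKM on cKO polysomes against 17.6, 17.2 and 4.50 in cKO input. The cHet polysomes had 11.3, 12.6 and 11.6 FPKM against 17.4, 18.2 and 17.8 in cHet input. Apart from cKO input replicate 3, every input library was above every polysome library. In cHet 37.2% of all tested genes were separated in this way. The differences did not pass the threshold, at 0.16 in cKO (SE 0.38, adjusted p = 0.779) and −0.59 in cHet (SE 0.38, adjusted p = 0.213). Without the 2 libraries that stood apart they were −0.55 in cKO (adjusted p = 4.33e-04) and −0.59 in cHet (adjusted p = 3.88e-05), where the cHet libraries are the same and the error is smaller because all groups share 1 estimate of the spread.

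Tfrc, the receptor through which cells take up transferrin-bound iron (ENSMUSG00000022797; chromosome 16, 32608920 to 32632794, plus strand), was laid out like Ireb2. It had 5.69, 3.65 and 5.25 FPKM on cKO polysomes against 7.71, 7.42 and 2.00 in cKO input. In cHet it had 3.70, 4.63 and 4.18 FPKM on polysomes against 7.996, 8.25 and 8.67 in input. The cHet fractions did not overlap, as in 37.2% of all tested genes, and in cKO they overlapped through input replicate 3 alone. The differences were −0.03 in cKO (SE 0.39, adjusted p = 0.963) and −0.98 in cHet (SE 0.39, adjusted p = 0.0501), and neither passed. Without the 2 libraries they were −0.77 in cKO (adjusted p = 0.00197) and −0.98 in cHet (adjusted p = 6.68e-05). The cHet value lay at the threshold. It passed with a pseudocount of 1 (adjusted p = 0.0370), a filter at 5 FPKM (0.0403), protein-coding scaling (0.0351) and voom weights (0.0451), and it did not with a pseudocount of 0.01 (0.0526), no filter (0.122), the lysate block (0.0603) or any 1 cHet library left out (0.0773 to 0.127).

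Slc40a1, which encodes ferroportin, the iron exporter of the cell membrane (ENSMUSG00000025993; chromosome 1, 45908068 to 45926523, minus strand), was the lowest of the 8, with 87 to 414 reads a library. It had 0.611, 0.855 and 0.682 FPKM on cKO polysomes against 1.24, 1.64 and 0.727 in cKO input. The cHet polysomes had 0.645, 0.899 and 0.687 FPKM against 1.47, 1.59 and 1.41 in cHet input. Only the cHet fractions were fully separated, as in 37.2% of all tested genes. The differences were −0.62 in cKO (SE 0.27, adjusted p = 0.0976; adjusted p = 0.00942 without the 2 libraries) and −0.93 in cHet (SE 0.27, adjusted p = 0.0130). With a pseudocount of 1, which weighs on low genes, the cHet value was −0.52 and still passed.

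Slc11a2, which encodes DMT1, the importer that moves ferrous iron out of endosomes (ENSMUSG00000023030; chromosome 15, 100387898 to 100425072, minus strand), was about equal in both fractions. It had 6.44, 6.55 and 7.83 FPKM on cKO polysomes against 5.95, 5.97 and 8.10 in cKO input. The cHet polysomes had 6.50, 7.32 and 7.82 FPKM against 5.77, 6.50 and 7.15 in cHet input. The fractions overlapped in both genotypes. The differences were 0.07 in cKO (95% interval −0.27 to 0.40, adjusted p = 0.776) and 0.16 in cHet (95% interval −0.18 to 0.49, adjusted p = 0.414). Their sign turned to negative when libraries were scaled to protein-coding genes. The SD of its log2 ratio over 6 lysates, 0.0815, was smaller than that of all but 0.639% of the 13610 tested genes.

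Of the 3 members with a hairpin match in the 5′ UTR, Ftl1 and Fth1 had the most negative polysome minus input differences and Slc40a1 a smaller one. Aco1 and Ncoa4, with no match, lay between in both genotypes, and the members were not tested against one another. Among 22 other tested genes with a 5′ UTR match, a list made after the data were seen, 5 were lower and 3 higher on cKO polysomes (median 0.02), and 7 were lower and 5 higher on cHet polysomes (median −0.13). The 22 include Ftl1-ps1, the copy that could share reads with Ftl1, and Alas2, which is also in the next list. All tested genes gave 15.6% lower and 16.9% higher in cKO, and 25.9% lower and 27.3% higher in cHet. Whether the 22 genes departed from these shares was not tested.

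Of 5 further mRNAs described in mammals with an iron-responsive element, all tested, 1 was lower and 1 was higher on polysomes in each genotype. Among all tested genes, 15.6% were lower and 16.9% higher in cKO, against 25.9% and 27.3% in cHet. Epas1, the hypoxia-inducible factor HIF-2 alpha, differed by −0.73 in cKO (adjusted p = 0.00857) and −0.92 in cHet (adjusted p = 0.00114). Pfn2, an actin-binding profilin, was higher, by 0.77 in cKO (adjusted p = 0.00400) and 0.98 in cHet (adjusted p = 4.58e-04). Alas2, the erythroid enzyme that opens heme synthesis and whose 5′ UTR holds a match across an exon junction, differed by −0.92 in cHet (adjusted p = 0.227) and did not pass.

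Of 25 other genes of iron uptake, storage and regulation, 16 were tested. In cKO 3 were lower and 4 higher on polysomes, and in cHet 6 were lower and 4 higher, with median differences of −0.05 and −0.04. Of all tested genes, 15.6% were lower and 16.9% higher in cKO, and 25.9% lower and 27.3% higher in cHet. Pcbp2, an iron chaperone that delivers iron to ferritin, was lower in both, with −0.83 in cKO (adjusted p = 9.44e-04) and −0.69 in cHet (adjusted p = 7.56e-04). Heph, a copper-containing ferroxidase that works with ferroportin, differed by −1.29 in cHet (adjusted p = 0.00164), and Sqstm1, an autophagy receptor, by −1.20 in cHet (adjusted p = 0.00280). Hfe, which tunes hepcidin signalling, was higher by 0.50 in cKO (adjusted p = 0.0376) and 0.69 in cHet (adjusted p = 0.00469). In cKO, Cybrd1, a ferric reductase, was higher by 0.49 (adjusted p = 0.0325), and Herc2, a ubiquitin ligase, was lower, with −0.47 (adjusted p = 0.0308).

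The genotypes were compared next, which asks whether the level of these mRNAs differs between libraries labelled cKO and cHet in the cytoplasm or on polysomes. None of the 8 iron genes passed in input and none of the 7 tested passed on polysomes, where Slc40a1 was below the expression filter. In each fraction 0% of all tested genes passed with limma (0 of 12977 in input and 0 of 12877 on polysomes). At an unadjusted p under 0.05 the shares were 15% in input and 21.3% on polysomes, and voom weights on the reads also called 0 genes in each. The members' own unadjusted p was under 0.05 only for Aco1 on polysomes.

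The ferritins differed little between genotypes at this precision. The cKO minus cHet difference for Fth1 was −0.05 on polysomes (95% interval −0.50 to 0.39) and 0.07 in input (−0.28 to 0.42). For Ftl1 it was 0.19 on polysomes (−0.23 to 0.61) and 0.14 in input (−0.23 to 0.51). The libraries of both genotypes overlapped in each case, and across both genes and fractions the intervals ran from −0.50 to 0.61. Without the library that stood apart, the differences were 0.058 on polysomes and −0.041 in input for Fth1, and 0.29 and −0.015 for Ftl1.

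Aco1 was the 1 member whose polysome libraries did not overlap between genotypes, with 10.1, 4.80 and 6.59 FPKM in cKO against 4.58, 4.59 and 4.75 in cHet. Such a separation in the higher direction was seen in 17.9% of the genes tested. The difference was 0.55 (SE 0.24, limma adjusted p = 0.232), and 0.27 without cKO polysome replicate 1 (adjusted p = 0.342). In input Aco1 differed by 0.08 (SE 0.16, adjusted p = 0.815).

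In input, cKO minus cHet differences of Tfrc and Ireb2 rested on 1 library. All cKO input libraries of Tfrc and of Ncoa4 lay below all cHet input libraries, and groups separated one way or the other in 29.3% of the genes tested. Tfrc differed by −0.75 (SE 0.48, adjusted p = 0.485) and Ireb2 by −0.67 (SE 0.49, adjusted p = 0.523). Without cKO input replicate 3 the values were −0.13 for Tfrc (adjusted p = 0.275) and −0.03 for Ireb2 (adjusted p = 0.774). Slc40a1 differed by −0.35 (SE 0.29, adjusted p = 0.561) with all libraries and by −0.06 without that library (adjusted p = 0.841), and Mettl14 was at its lowest, 1.26 FPKM, in the same library. Ncoa4 differed by 0.19 on polysomes (adjusted p = 0.575; 0.041 without cKO polysome replicate 1, adjusted p = 0.915) and by −0.19 in input (adjusted p = 0.506). Slc11a2 differed by −0.06 on polysomes and 0.03 in input.

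**Figure D5:**
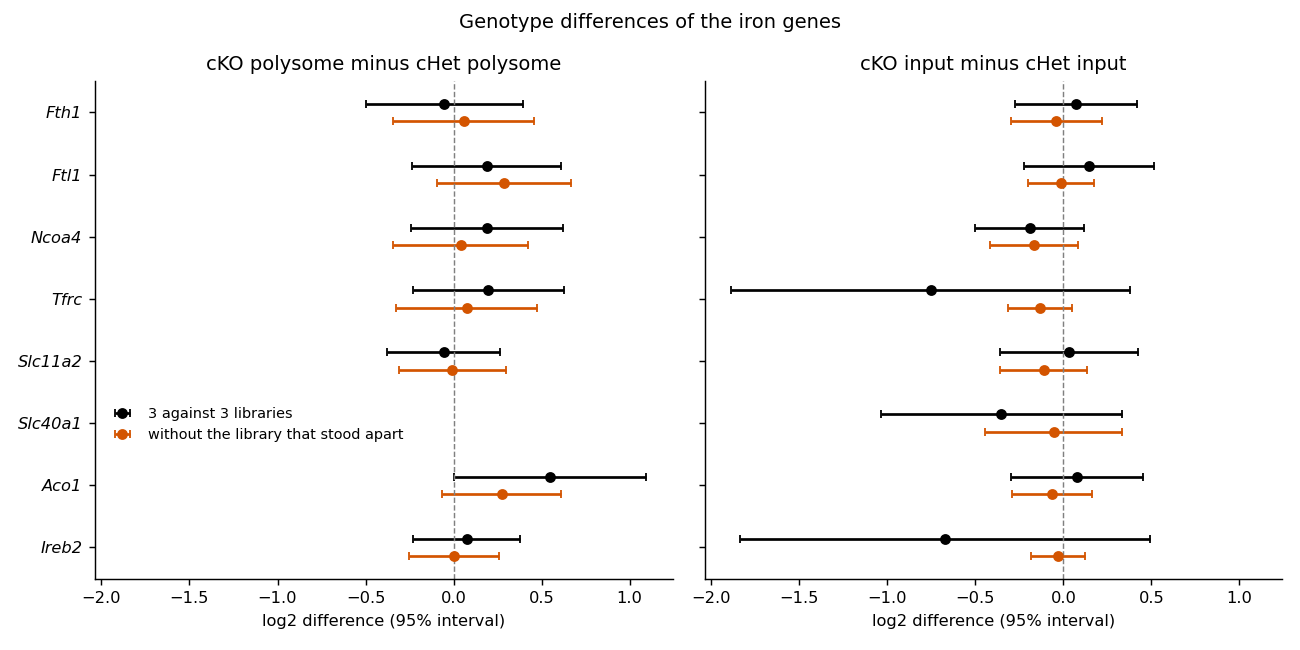
Log2 cKO minus cHet difference of the iron genes (x axis, 95% interval) on polysomes, left, and in input, right, with all 3 libraries a group in black and without the library that stood apart in orange. The intervals reach 0 or beyond for every gene other than Aco1 on polysomes, whose lower bound is 0.0034, and the wide intervals of Tfrc and Ireb2 in input narrow without that library.

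The polysome to input ratio did not pass a test of difference between genotypes for any of the 8, where 0% of 13610 genes passed with limma (4.69% at an unadjusted p under 0.05, and 0 with voom weights). The difference in log2 ratio was 0.05 for Ftl1 (95% interval −0.48 to 0.57), −0.12 for Fth1 (−0.66 to 0.41) and −0.09 for Slc11a2 (−0.57 to 0.39). It was 0.95 for Tfrc and 0.75 for Ireb2 (adjusted p = 0.790 each), and 0.21 and 0.03 without the 2 libraries that stood apart. Ncoa4 was the 1 member whose lysates did not overlap between genotypes, where 8.68% of the genes tested were separated in that direction, with polysome levels at 68.8%, 49.2% and 49.1% of input in cKO against 38.5%, 44.8% and 42.2% in cHet. Its difference in log2 ratio was 0.38 (SE 0.23, adjusted p = 0.790) and 0.23 without cKO polysome replicate 1, the library of the 68.8% value. A two-sided exact permutation test over the lysates gave p = 0.1, the smallest that 3 against 3 allow. The tests on the 8 single ratios were not adjusted.

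Blood cells carry much of the iron machinery, and in bulk samples fewer cells of a type and less RNA per cell cannot be told apart. Erythroid markers (16 of 16 detected in every library) summed to 10752 to 25963 FPKM on cKO polysomes, 16442 to 31517 on cHet polysomes, 5802 to 14344 in cKO input and 9336 to 23979 in cHet input. Macrophage markers (12) summed to 73.1 to 102 FPKM on cKO polysomes, 55.2 to 61.5 on cHet polysomes, 58.9 to 83.7 in cKO input and 46.6 to 51.6 in cHet input, with at most 1 of them at 0 in a library. The macrophage sums did not overlap between genotypes in either fraction, and the erythroid sums, which are mostly globins, overlapped in both. Of single tested genes, 29.3% separated between genotypes one way or the other in input. On polysomes 17.9% separated with cKO higher. Gene by gene, the cKO minus cHet difference was below 0 for 12 of 13 tested erythroid markers on polysomes (median −0.40) and 14 of 15 in input (median −0.53). It was above 0 for 11 of 11 macrophage markers on polysomes (median 0.59) and 10 of 10 in input (median 0.50). No marker of either list passed. Among all tested genes, it was above 0 for 6814 of 12877 on polysomes and 6302 of 12977 in input. Without cKO polysome replicate 1, 8 of 13 erythroid markers were above 0 on polysomes (median 0.05). Without cKO input replicate 3, 14 of 15 were below 0 in input (median −0.69). Macrophage markers stayed above 0 without these libraries, 10 of 10 on polysomes (median 0.40) and 10 of 10 in input (median 0.43). The part of these cell types in the values of Tfrc, which erythroid cells express strongly, and of Slc40a1 and the ferritins, which macrophages express, was not tested.

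The genes whose FPKM pattern was most like that of a member were taken by Pearson r of log2 values over the 12 libraries among 7453 genes with a mean of at least 5 FPKM. For Ftl1 they were Ftl1-ps1 (r = 0.994), Rpsa, a ribosomal protein (0.991), and Fth1 (0.986). For Fth1 they were Ftl1 (0.986), Ftl1-ps1 (0.977) and Pabpc1, the poly(A)-binding protein (0.975). For Tfrc they were Magt1 (0.980), Stk26 (0.979) and Ddx3x (0.979). These are descriptions over libraries that share fraction, depth and preparation.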

How the data were processed

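Per the labels' protocols, the Quick RNA Microprep kit gave the RNA and the NEBNext Ultra II RNA kit the 12 libraries. HISAT2 2.0.5, featureCounts 1.5.0-p3 and build mm10 are named in the submitters' processing notes. The authors deposited FPKM values, already scaled by gene length and between libraries, and their median-ratio factor was 1.02 in all 12 libraries. The scaling did not follow the summed reads of each library exactly. The sources used here give neither strandedness nor RNA selection, and antisense reads cannot be told apart. FPKM times gene length gave whole reads within 0.01 for 100% of values, from which depth was read.

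Values were analysed as log2(FPKM + 0.1), which understates changes of low genes, with limma 3.58.1 (intensity trend) in R 4.3.3. Genes with FPKM of at least 1 in at least 3 fitted libraries were tested, with Benjamini-Hochberg adjustment over all of them and a two-sided threshold of 0.05. Genotypes were compared on 6 libraries, and fractions and ratios on 12 with 4 group means. The fit was tested on simulated data. Input and polysome libraries of a number share a lysate by the design text (deviations correlated at 0.0525 to 0.249), and the block is an alternative. Of each list, up to 4 tested genes with the smallest p were named. The members and lists were chosen with earlier results of these data known. A gene name with a second identifier used the more abundant one. A result of 1 further gene is not reported here.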

Additional observations from a re-analysis of the deposited data

How the results depend on the processing

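Alternatives were other pseudocounts, filters, scalings, voom weights, the replicate block, and leaving out each library or both libraries that stood apart. Median-ratio scaling had the same factor, 1.02, in all 12 libraries, so it tests nothing in fits on all of them. Under the other alternatives Fth1, Ftl1, Aco1 and Ncoa4 stayed lower on polysomes in both genotypes, past the threshold, though Ncoa4 and Slc40a1 were not tested with a filter at 5 FPKM. With the replicate block no iron gene's call changed. The lysates are paired, and Ftl1 then differed by −2.12 in cKO with SE 0.089. Replicate numbers did not pair the genotypes (r of −0.281 to 0.165), and the block moved the genes called between genotypes on polysomes to 42, against 0.

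Leaving out both libraries that stood apart gave 326 genes called in input and 160 on polysomes between genotypes, 8012 between cKO fractions (4424 with all libraries) and 7 iron genes in cKO (4 with all). It turned the input difference of Fth1 to −0.041, Ftl1 to −0.015, Aco1 to −0.066 and Slc11a2 to −0.11, the polysome difference of Fth1 to 0.058, the cKO fraction difference of Ireb2 to −0.55, and the ratio difference of Fth1 to 0.10 and Slc11a2 to 0.11. Protein-coding scaling turned Slc11a2 to −0.018 in input, −0.062 and −0.069 between cKO and cHet fractions and 0.0063 in the ratio, and voom weights turned it to −0.0059 in input. In the ratio, a pseudocount of 0.01 called 1 gene and no filter 7.

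Leaving out single libraries gave 0 to 326 genes called in input, 0 to 231 on polysomes, 2441 to 6023 between cKO fractions, 5722 to 8814 between cHet fractions, and 4 to 7 iron genes called in cKO and 5 to 7 in cHet. Differences that changed sign ranged, in input, from −0.041 to 0.16 for Fth1, −0.015 to 0.24 for Ftl1, −0.066 to 0.22 for Aco1 and −0.11 to 0.11 for Slc11a2. On polysomes they ranged from −0.16 to 0.10 for Fth1 and −0.14 to 0.0027 for Slc11a2, between cKO fractions from −0.65 to 0.29 for Tfrc, −0.48 to 0.49 for Ireb2 and −0.023 to 0.21 for Slc11a2, and in the ratio from −0.13 to 0.20 for Ftl1, −0.23 to 0.031 for Fth1 and −0.18 to 0.055 for Slc11a2. The cause was not tested. Depth limits Slc40a1, with at most 414 reads in a library.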

Other observations

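Genes of iron-sulfur cluster assembly, which build the cofactor that turns IRP1 into an aconitase, were counted in the same way. Of 29 tested, 10 were higher and 2 lower in cKO, and 15 higher and 5 lower in cHet. Their median differences were 0.38 and 0.49. Of all tested genes, 16.9% were higher and 15.6% lower in cKO, and 27.3% higher and 25.9% lower in cHet. Cisd1, a mitochondrial outer membrane iron-sulfur protein, was higher by 1.14 in cKO (limma adjusted p = 0.00112) and 1.31 in cHet (adjusted p = 1.95e-04). Fdx1, a mitochondrial ferredoxin, was higher by 0.82 in cKO (adjusted p = 0.00115) and 0.95 in cHet (adjusted p = 1.86e-04). Lyrm4, a partner of the cysteine desulfurase, was higher by 0.72 in cKO (adjusted p = 0.00442) and 1.09 in cHet (adjusted p = 2.06e-04). Mms19, of the cytosolic assembly pathway, was lower in cHet, with −0.82 (adjusted p = 7.32e-04).

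Of 19 tested genes of heme synthesis, export and breakdown, 3 were higher and 1 lower on polysomes in cKO, and 4 were higher and 4 lower in cHet, against 16.9% of all genes higher and 15.6% lower in cKO, and 27.3% higher and 25.9% lower in cHet. Alas1, the first enzyme of heme synthesis outside the erythroid line, was lower, with −0.66 in cKO (adjusted p = 0.0344) and −1.10 in cHet (adjusted p = 0.00133). Tmem14c, a mitochondrial porphyrin transporter, was higher by 0.93 in cKO (adjusted p = 0.00227) and 1.16 in cHet (adjusted p = 2.71e-04), and Uros, the fourth enzyme of the pathway, was higher by 0.53 in cKO (adjusted p = 0.0211) and 0.77 in cHet (adjusted p = 0.00150).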
